A study of Mus musculus with 2 samples.

Results

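Cadherins are calcium-dependent adhesion molecules, and the genes described here are the cadherins (Cdh) and the protocadherins that lie outside the large clustered locus (Pcdh) in the postnatal day 1 mouse cerebellum. They were chosen by name alone, as every row of the gene table whose symbol was Cdh or Pcdh followed only by digits. This gave 34 of the 32285 genes, 23 of them cadherins and 11 protocadherins. Relatives with a letter in the symbol, such as Pcdh11x, fall outside the rule. Single-nucleus RNA-seq counted their transcripts in 2 libraries, 1 per group. The control library was made from 12 pooled cerebella of littermates without Cre, with the genotype given as Tox3f/f and a library name that also allows Tox3f/+. The other library was labelled conditional knockout (cKO) and was made from 12 pooled cerebella of Nestin-cre;Tox3f/f pups. Both groups therefore carried floxed Tox3 alleles and differed in the Nestin-cre transgene, which is active in neural precursors and so in the neurons and glia descended from them. In what follows, cKO stands for the library labelled cKO.

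The classical cadherins hold neighbouring cells together through homophilic binding of their outer domains, and their inner tails bind catenins that reach the actin cytoskeleton. Type I members such as Cdh2 (N-cadherin) adhere strongly and are widespread in neural tissue, whereas the many type II members, among them Cdh6 to Cdh12, Cdh18, Cdh20 and Cdh22, are expressed in restricted patterns that often mark particular neuron groups and brain divisions. The non-clustered protocadherins adhere weakly, lack the catenin-binding tail, and are known for roles in axon growth, cell sorting and synapse formation. In the developing cerebellum granule neuron progenitors (GNPs) divide in the external granule layer and give rise to granule neurons (GN), which descend past Purkinje cells along the fibres of Bergmann glia.

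The deposited matrices held 4857 control and 6946 cKO barcodes, and 4667 and 6555 nuclei were kept, with medians of 3978 and 4025 unique molecular identifiers (UMIs). Only 9 barcodes occurred in both libraries. All levels are UMI counts scaled to 1000000 UMIs (CPM) of a library or of a class of nuclei in it, and all ratios are cKO over control. Each group had a single library and thus no replicate, so no test was made. Intervals in parentheses after "95%" cover counting error only, exact Poisson for a level and conditional binomial for a ratio, and UMIs of one library share its pups and its handling. A member counted as past the fold where its ratio was at least 1.5 in either direction with at least 20 UMIs over both libraries. Tox3 itself was at 104 CPM in control and 119 CPM in cKO, and since the deleted part of the gene is not given in the sources used here this count does not check the label. Atoh1, the transcription factor that specifies granule cells, had 43 control UMIs and 3 in cKO. The pups also differed in sex, with 1887 nuclei holding an Xist UMI and no Y-linked one against 1412 of the opposite kind in control, and 3820 against 1459 in cKO. Classes were rebuilt by clustering without the members and named from marker genes, and 1 unnamed cluster of low depth (cluster 0, median 599 UMIs) held 21.6% of control nuclei and 10.5% of cKO nuclei.

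Across the whole library 30 of the 34 members reached the minimum, and most differed little between the libraries. Past the fold, 6 were higher and 2 lower in cKO, against 7.03% of all 20213 genes that were higher and 7.72% that were lower. In male pups 3 of 25 were higher and 0 lower, and of the 25 members with at least 50 UMIs 4 were higher and 1 lower. The shares of all genes above hold for the main setting only, so the counts under these alternatives cannot be set against them. The median log2 ratio was 0.12 over the members and -0.02 over all genes tested. Several of the 8 rest on few UMIs, so the values follow one by one.

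Cdh9, a type II cadherin known for pairing synaptic partners, was the most abundant of these 8, at 155 CPM in control and 251 in cKO, a ratio of 1.62 (95% 1.55 to 1.69). Purkinje cell-like nuclei held 78.7% of its UMIs in control and 86.9% in cKO, and their share of nuclei was 6.43% in control and 10.9% in cKO. Within those nuclei the ratio was 1.34 (95% 1.28 to 1.40). Pcdh19, the X-linked protocadherin whose human counterpart is an epilepsy gene, went from 48.1 to 72.2 CPM, a ratio of 1.502 (95% 1.39 to 1.62). Pcdh8, known as an activity-induced protocadherin that promotes cadherin uptake at synapses, went from 13.2 to 21.2 CPM, a ratio of 1.61 (95% 1.39 to 1.86). Pcdh20 was near the detection limit in both, with 39 UMIs in control and 96 in cKO, a ratio of 1.68 (95% 1.15 to 2.50). Cdh15 (M-cadherin) had 4 UMIs and 19, and Cdh5 (VE-cadherin, of endothelial junctions) had 10 and 23, with a ratio of 1.57 whose interval, 95% 0.72 to 3.69, included no difference.

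The 2 members lower in cKO were Cdh23 and Cdh19. Cdh23, which with Pcdh15 forms the tip links of hair cells, was at 50.2 CPM in control and 32.4 CPM in cKO, a ratio of 0.65 (95% 0.59 to 0.71). The low-depth cluster 0 alone held 39.1% of its control UMIs and 18.2% of those in cKO, at 591 and 405 CPM, and Cdh23 was the first of its leading genes. With cluster 0 left out, an alternative chosen after seeing the data, the ratio was 0.85 (95% 0.77 to 0.95) and Cdh23 was no longer past the fold. Cdh19, a type II cadherin of glial precursors, had 29 UMIs in control and 18 in cKO, a ratio of 0.42 (95% 0.22 to 0.79). The other 22 members lay between 0.74 for Cdh3 (11 and 12 UMIs) and 1.43 for Pcdh10, with Cdh2 at 0.97 (95% 0.94 to 0.99).

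**Figure D1:**
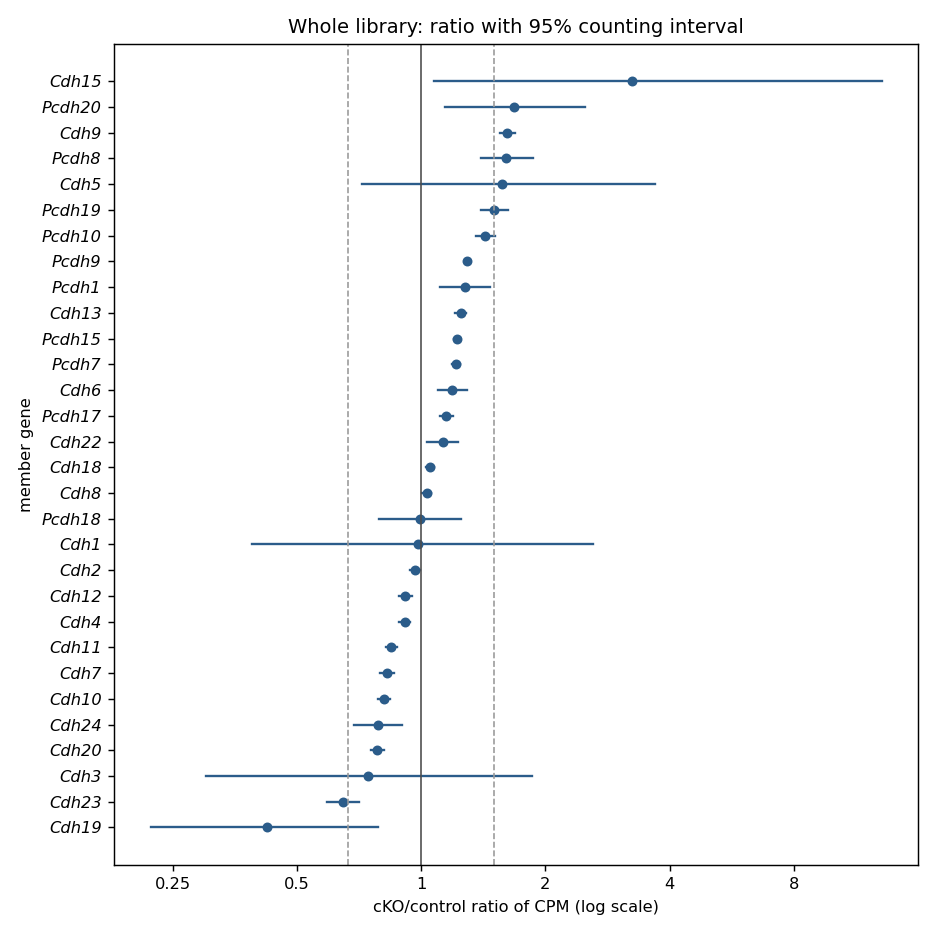
Ratio of CPM, cKO over control, for the 30 members with at least 20 UMIs in the whole libraries, on a log axis. Points are ratios, bars are 95% counting intervals and dashed lines mark the 1.5-fold limits. Abundant members have bars narrower than their points, whereas members with few UMIs, among them Cdh1, Cdh3, Cdh5 and Cdh15, have wide ones.

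The members differed between classes of nuclei. Over 8 named classes with at least 30 nuclei in each library, 25 members had at least 20 UMIs in the control class where their level was highest, and for 16 of them that class exceeded the next one beyond counting error. For 17 of the 25 the highest class was the same in cKO. Levels of a member over the 20 clusters of that size, apart from cluster 0, gave Spearman correlations between the libraries of 0.53 to 0.98, with a median of 0.90, as a description, since both libraries were clustered together.

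Cdh18 was highest in Purkinje cell-like nuclei (2264 CPM in control, 1690 CPM in cKO), as was Cdh9 (820 and 1098 CPM), whose next class in control, the glutamatergic cerebellar nuclei (CN)-like nuclei, was at 113 CPM. Pcdh19 (138 CPM) and Cdh8 (556 CPM) were also highest there in control, but the CN-like nuclei at 134 CPM for Pcdh19 and the GN-like nuclei at 525 CPM for Cdh8 did not differ from them beyond counting error. In cKO the order for Cdh8 turned, with 820 CPM in GN-like and 478 CPM in Purkinje cell-like nuclei. Cdh12, a type II cadherin of neurons, was highest in the same nuclei, at 599.9 CPM in control and 502 CPM in cKO.

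GN-like nuclei led for Cdh7 (464 and 430 CPM) and Cdh10 (516 and 446 CPM), both type II cadherins, although for Cdh10 the oligodendrocyte lineage-like nuclei at 476 CPM in control were within counting error. GNP-like nuclei led for Cdh20 (1084 and 1603 CPM) and in control for Cdh24 (36.2 CPM). They also led for Cdh2 (523 and 738 CPM), where the interneuron-like nuclei at 508 CPM in control were within counting error. The Bergmann glia-like nuclei led for 6 of the 25 members in control. These were Cdh4 or R-cadherin (1295 CPM), Cdh11 (760 CPM), Cdh22 (196 CPM), Cdh6 (153 CPM), Pcdh18 (30.7 CPM) and Pcdh20 (24.2 CPM). Bergmann glia-like nuclei were also close behind the GNP-like nuclei for Cdh20, at 958 CPM in control.

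Oligodendrocyte lineage-like nuclei led in control for Pcdh15 (3608 CPM), Cdh13 (658 CPM), the cadherin that is anchored by a lipid and has no inner tail, and Pcdh10 (306 CPM). For Pcdh10 the Purkinje cell-like nuclei at 271 CPM were within counting error, and in cKO they were at 313 CPM against 281 CPM. GABAergic interneuron-like nuclei led for Pcdh8 (34.5 CPM) and Pcdh1 (23.7 CPM) in control, each within counting error of the next class. The CN-like nuclei led for Pcdh9 (8023 and 7836 CPM), and in control for Pcdh7 (1472 CPM) and Pcdh17 (434 CPM), where Purkinje cell-like nuclei at 1416 CPM for Pcdh7 and 425 CPM for Pcdh17 were within counting error. Microglia-like nuclei led for Cdh23 (237 and 175 CPM). Vsir, an immune checkpoint gene expressed by myeloid cells, lies on the opposite strand within Cdh23 and was at 185 and 173 CPM in the same nuclei. Since the strand setting of the counting is not given in the sources used here, reads of Cdh23 and Vsir in microglia-like nuclei cannot be told apart. In cluster 0 Vsir had 2 UMIs in control and 1 in cKO beside 404 and 178 UMIs of Cdh23.

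**Figure D2:**
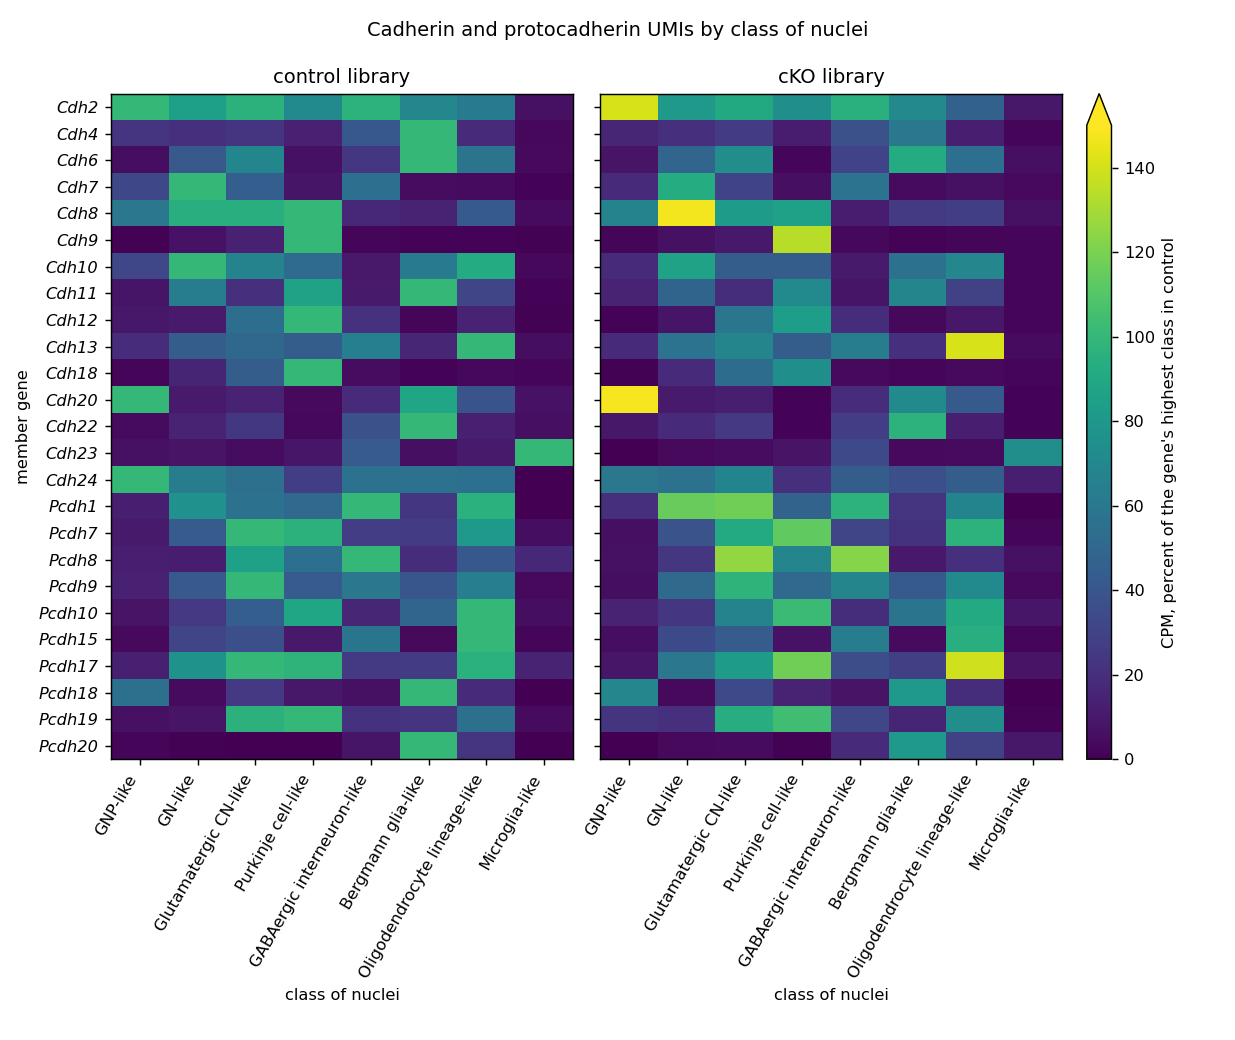
Level of each of the 25 members with at least 20 UMIs in its highest control class, as a percentage of that level, in 8 named classes of the control library (left) and the cKO library (right). Rows are genes, columns are classes and colour runs from 0 to 150%, with an arrow for higher values. Most rows keep their bright cells in both panels, Cdh8 brightens in GN-like and Cdh20 in GNP-like nuclei of cKO.

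The granule lineage, GNP-like and GN-like nuclei together, held 1639 control and 1543 cKO nuclei. GNP-like nuclei made up 31.1% of these in control (95% exact binomial 28.9 to 33.4) and 7.52% in cKO (95% 6.25 to 8.95), so the lineage mixed progenitors and neurons in different parts. Of 24 members tested in it, 4 were higher and 3 lower past the fold, against 5.71% and 14.2% of all genes. With median-of-ratios scaling 9 were higher and 3 lower, against 7.51% and 11.4% of all genes. The promoters of Cdh20, Cdh8 and Pcdh19 are shown because these are the lineage's clearest cases by UMI number or by size. They are RefSeq promoter windows of the GRCm38.p6 assembly, from 250 bases before the transcription start to 50 after it, 5' to 3' on the gene's strand. Capitals mark every CANNTG, the E-box core that Atoh1 and other basic helix-loop-helix factors recognise, which reads the same on both strands.
Cdh20 (chr1:104768270-104768569, plus strand): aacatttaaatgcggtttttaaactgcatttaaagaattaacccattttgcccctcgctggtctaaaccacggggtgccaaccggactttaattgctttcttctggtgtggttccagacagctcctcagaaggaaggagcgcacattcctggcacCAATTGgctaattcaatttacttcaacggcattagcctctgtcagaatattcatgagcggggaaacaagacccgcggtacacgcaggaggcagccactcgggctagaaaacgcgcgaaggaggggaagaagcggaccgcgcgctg
Cdh8 (chr8:99416422-99416721, minus strand): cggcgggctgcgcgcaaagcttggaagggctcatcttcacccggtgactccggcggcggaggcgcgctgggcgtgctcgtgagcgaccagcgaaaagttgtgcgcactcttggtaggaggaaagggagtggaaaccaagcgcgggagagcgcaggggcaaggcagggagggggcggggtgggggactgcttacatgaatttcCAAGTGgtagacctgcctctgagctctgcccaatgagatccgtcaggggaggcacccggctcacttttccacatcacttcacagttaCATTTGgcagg
Pcdh19 (chrX:133688944-133689243, minus strand): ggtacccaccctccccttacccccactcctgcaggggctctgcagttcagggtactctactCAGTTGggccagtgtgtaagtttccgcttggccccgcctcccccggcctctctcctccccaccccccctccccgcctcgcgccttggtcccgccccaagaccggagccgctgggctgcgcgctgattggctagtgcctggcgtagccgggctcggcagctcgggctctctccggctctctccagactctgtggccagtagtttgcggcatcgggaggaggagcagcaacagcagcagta
Cdh20 held 1 such core, Cdh8 held 2 and Pcdh19 held 1. CANNTG occurs in 72.3% of all 32851 promoters in the table and in 15 of the 25 promoters listed for 22 members. The stricter CAGCTG occurs in 16.3% of all promoters and in none of these 3.

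Cdh20 is a type II cadherin known for restricted expression in the developing neural tube. In the granule lineage it had 2900 UMIs in control and 1389 in cKO, or 375 and 215 CPM, a ratio of 0.57 (95% 0.54 to 0.61). Within each class the values did not go that way. GNP-like nuclei had 1084 CPM in control and 1603 CPM in cKO, a ratio of 1.48 (95% 1.35 to 1.61), and GN-like nuclei had 120 and 118 CPM. The lower level over the lineage stood beside a 9.04-fold drop from GNP-like to GN-like nuclei in control and the smaller share of GNP-like nuclei in cKO. In both progenitor clusters the level was higher in cKO, from 1119 to 1514 CPM in cluster 15, with Top2a and Mki67 among its leading genes, and from 1033 to 1791 CPM in cluster 17. In nuclei of female pups the GNP-like ratio was 1.22 (95% 1.08 to 1.37) and in those of male pups 2.50 (95% 2.13 to 2.92), the latter from 25 cKO nuclei.

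Pcdh18, another member of progenitors, went with Cdh20 at much lower counts, with 43 UMIs in the control lineage and 16 in cKO, a ratio of 0.44 (95% 0.23 to 0.81). In GNP-like nuclei it had 35 and 9 UMIs and a ratio of 1.25 whose interval, 95% 0.53 to 2.66, spanned 1. Cdh23 in the lineage had 136 and 58 UMIs, a ratio of 0.51 (95% 0.37 to 0.70). Cdh23 was lower in both classes, with 103 UMIs in control and 58 in cKO in GN-like nuclei, a ratio of 0.53 (95% 0.38 to 0.74). In GNP-like nuclei it had 33 UMIs in control and none of 419954 UMIs in cKO. The 95% counting intervals allow up to 8.78 CPM there and a ratio of up to 0.58, or at least 1.74-fold lower.

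The 4 members higher in the lineage were also higher past the fold among GN-like nuclei alone. Cdh8, a type II cadherin known for linking particular neuron types in several circuits, was at 525 CPM in control GN-like nuclei (2987 UMIs) and 820 CPM in cKO (4959 UMIs), a ratio of 1.56 (95% 1.49 to 1.63). Its lineage ratio was 1.67 (95% 1.599 to 1.74). By cluster it was 1.595 in cluster 1, 1.42 in cluster 4 and 1.00 in cluster 7, where Cdh20 was still at 359 CPM in control. The unnamed cluster 2, which carried GN markers, had the highest Cdh8 level of all clusters in control, at 1249 CPM in control and 1402 CPM in cKO, a ratio of 1.12. Joining it to the lineage, a choice made after seeing the data, left the lineage ratio at 1.52 (95% 1.47 to 1.58).

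Pcdh19 showed the largest ratio among the 23 members with at least 20 UMIs in GN-like nuclei. It had 62 UMIs in control and 168 in cKO, or 10.9 and 27.8 CPM, a ratio of 2.55 (95% 1.89 to 3.46). In GNP-like nuclei it had 19 and 13 UMIs, a ratio of 3.33 (95% 1.51 to 7.11), and in cluster 2 it went from 16.9 to 39.9 CPM. Purkinje cell-like nuclei, where Pcdh19 was at 138 and 144 CPM, gave a ratio of 1.04 (95% 0.92 to 1.17). Because Pcdh19 is X-linked and the libraries differed in the sex of their pups, the GN-like ratio was taken within each sex, and it was 2.31 in both female and male pups (95% 1.54 to 3.56 and 1.37 to 3.95). Pcdh8 in GN-like nuclei had 22 UMIs in control and 50 in cKO, a ratio of 2.14 (95% 1.27 to 3.70). Pcdh1, a protocadherin of the delta1 group, had 102 and 165 UMIs, a ratio of 1.52 (95% 1.18 to 1.96). For Pcdh1 the ratio among GN-like nuclei thinned to 1000 UMIs each was 1.07, below the fold.

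Among GN-like nuclei 4 of 23 members were higher and 1 lower past the fold, against 5.39% and 7.06% of all genes. In male pups 3 were higher and 0 lower, a count without the share of all genes at that setting. In the main setting the 1 lower member was Cdh23. Abundant members within the fold leaned both ways there, with Cdh13 at 1.29 and Pcdh9 at 1.24 on the high side and Cdh11 at 0.77 and Pcdh17, a delta2 protocadherin of axon growth, at 0.78 on the low side. Their counting intervals excluded 1, but no replicate library shows how much such ratios vary.

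Among GNP-like nuclei 5 of 22 members were higher and 8 lower past the fold, against 11.2% and 21.5% of all 11134 genes, so in this class many genes were past the fold. After thinning each nucleus to 1000 UMIs 0 of 15 members were higher and 7 were lower, and in male pups 5 of 16 were higher and 3 lower. The shares of all genes above hold for the main setting only, so they cannot be set against these alternative counts. The class had 510 control nuclei and 116 in cKO. The median log2 ratio was 0.04 over the members and -0.07 over all genes. In cKO the summed level of the 9 GNP markers was 3400 CPM against 3175 CPM in control, that of the 9 GN markers 2538 against 1882 CPM, and that of the 6 astrocyte markers 543 against 298 CPM. Their part in the ratios was not tested.

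The lower member with most UMIs in GNP-like nuclei was Pcdh9, a delta1 protocadherin that is abundant in differentiating neurons. It had 2252 UMIs in control and 192 in cKO, or 1101 and 457 CPM, a ratio of 0.42 (95% 0.36 to 0.48). It was lower in both progenitor clusters, with 0.62 in cluster 15 and 0.28 in cluster 17, and in both sexes, with 0.43 in female and 0.40 in male pups. In GN-like nuclei Pcdh9 was instead 1.24-fold higher in cKO (95% 1.22 to 1.27), at 4152 CPM against 3342 CPM in control. The rise was uneven, being 1.64-fold in cluster 4 and 1.46-fold in cluster 7. In cluster 1, which held most GN-like UMIs of Pcdh9, it was only 1.07-fold (95% 1.05 to 1.10), from 4748 to 5103 CPM. When each nucleus was instead assigned by its own markers, without clusters, 224 cKO nuclei were called GNP-like and the Pcdh9 ratio there was 1.69, the other direction, so the direction of Pcdh9 in progenitors depends on how they are called.

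Cdh12 had 117 UMIs in control GNP-like nuclei and 4 in cKO, a ratio of 0.17 (95% 0.045 to 0.44), and stayed below 0.5 in each alternative. In GN-like nuclei it was at 66.3 and 51.9 CPM, a ratio of 0.78. Cdh7, Pcdh7 and Cdh10, which were all higher in GN-like than in GNP-like nuclei, formed a further lower group with close ratios. Cdh7 went from 151 to 83.3 CPM, a ratio of 0.55 (95% 0.38 to 0.78). Pcdh7, known as BH-protocadherin, went from 159 to 88.1 CPM, a ratio of 0.55 (95% 0.38 to 0.78). Cdh10 went from 164 to 92.9 CPM, a ratio of 0.57 (95% 0.40 to 0.79). Cdh18, with 83 and 10 UMIs, and Cdh24, with 74 and 9 UMIs, had ratios of 0.59 whose intervals reached above 1. In male pups the GNP-like ratio turned to 1.70 for Pcdh7, 1.24 for Cdh10 and 1.33 for Cdh18, and in female pups it was 0.25 for Pcdh7 and 0.31 for Cdh10. With nuclei assigned one by one from their markers the ratios also turned, to 1.13 for Cdh7, 1.36 for Pcdh7, 1.11 for Cdh10 and 1.55 for Cdh18, so the direction of these 4 depends on how progenitors are called.

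The 5 members higher in cKO GNP-like nuclei had few UMIs. Cdh11 had 132 UMIs in control and 47 in cKO, a ratio of 1.73 (95% 1.22 to 2.44), and Pcdh10, which binds an actin regulatory complex, had 48 and 19, a ratio of 1.93 (95% 1.07 to 3.34). Cdh9 and Cdh22 both had 18 UMIs in control and 8 in cKO, a ratio of 2.17 with a 95% interval from 0.81 to 5.23, and Pcdh19 is given above. Cdh2, the main type I cadherin of neural progenitors, stayed within the fold at 523 and 738 CPM, a ratio of 1.41 (95% 1.24 to 1.602).

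The members were also compared between progenitors and neurons within each library. In control 15 of 23 members were at least 1.5-fold higher in GN-like than in GNP-like nuclei and 2 lower, against 19.4% and 34.9% of all genes. In cKO 18 were higher and 2 lower, against 26.5% and 31% of all genes. The 15 were higher in both libraries, as a description, since both libraries were clustered together. Pcdh15 went from 139 CPM in control GNP-like to 1130 CPM in GN-like nuclei, an 8.11-fold step, and Cdh18 from 40.6 to 351 CPM, an 8.65-fold step. Other members higher in control GN-like nuclei included Cdh11 (7.44-fold), Cdh6 (7.26-fold), Cdh9 (6.88-fold), Pcdh1 (6.12-fold), Pcdh17 (5.74-fold), Pcdh7 (4.05-fold), Cdh10 (3.15-fold), Cdh7 (3.07-fold) and Pcdh9 (3.04-fold). Some steps were larger in cKO, with 9.08-fold for Pcdh9, 6.37-fold for Pcdh7 and 5.16-fold for Cdh7, whereas the step of Cdh11 was smaller, at 3.29-fold. Cdh20 ran the other way, from 1084 down to 120 CPM in control and from 1603 down to 118 CPM in cKO, and Cdh2 was at 523 and 443 CPM in control and 738 and 422 CPM in cKO.

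**Figure D3:**
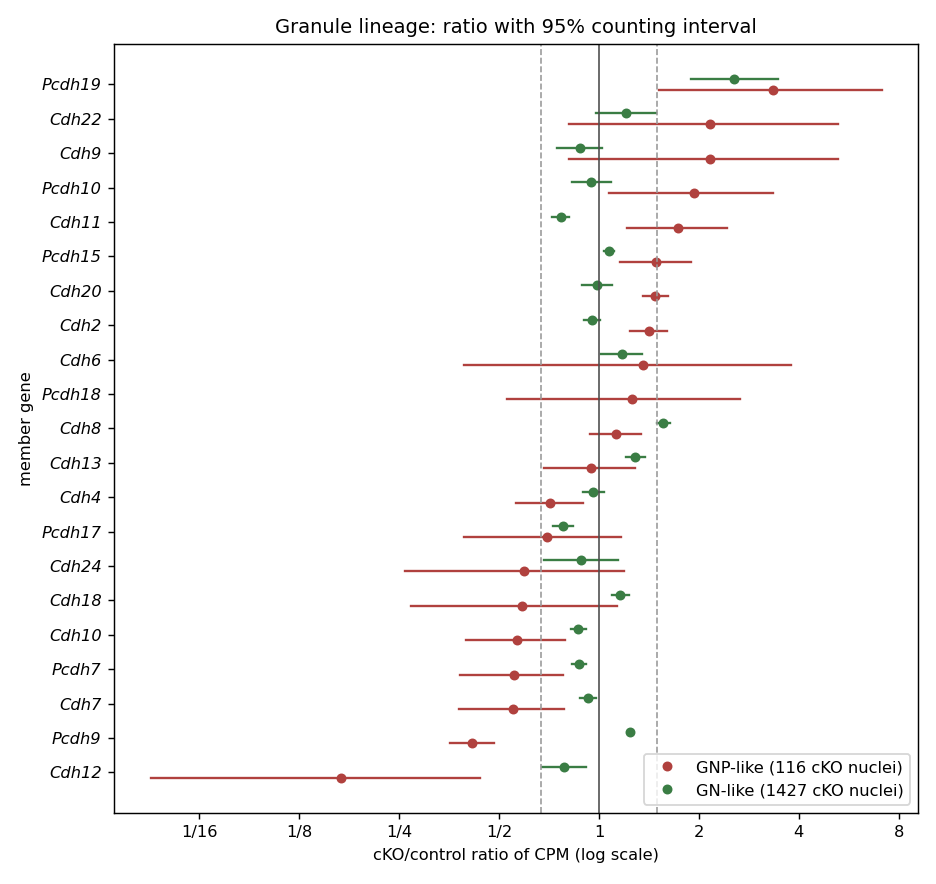
Ratio of CPM, cKO over control, for 21 members in GNP-like (red) and GN-like (green) nuclei, on a log axis, with 95% counting intervals as bars and the 1.5-fold limits as dashed lines. Members are those with at least 20 UMIs among GNP-like nuclei, apart from Cdh23, which had none in cKO. Pcdh9 and Cdh12 lie far left for GNP-like nuclei while their GN-like points lie near 1, and Pcdh19 lies right for both.

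GN-like nuclei were not uniform in the members. Cluster 1, led by Svep1 and Slit3, exceeded cluster 4, led by Reln and Cadps2, for Cdh13 (461 and 73.8 CPM in control, 554 and 92.4 CPM in cKO), Cdh4 (395 and 98.0 CPM in control) and Cdh22 (46.5 and 3.10 CPM in control). Cdh10 ran the other way, with 377 CPM in cluster 1 and 922 CPM in cluster 4 of control and 335 and 803 CPM in cKO. Pcdh15 was at 1520 CPM in cluster 1 and 732 CPM in cluster 4 of control. Cdh13 and Cdh10 thus divided these clusters in opposite ways in both libraries. Neither took part in the clustering, but both libraries were clustered together, so this is a description only.

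**Figure D4:**
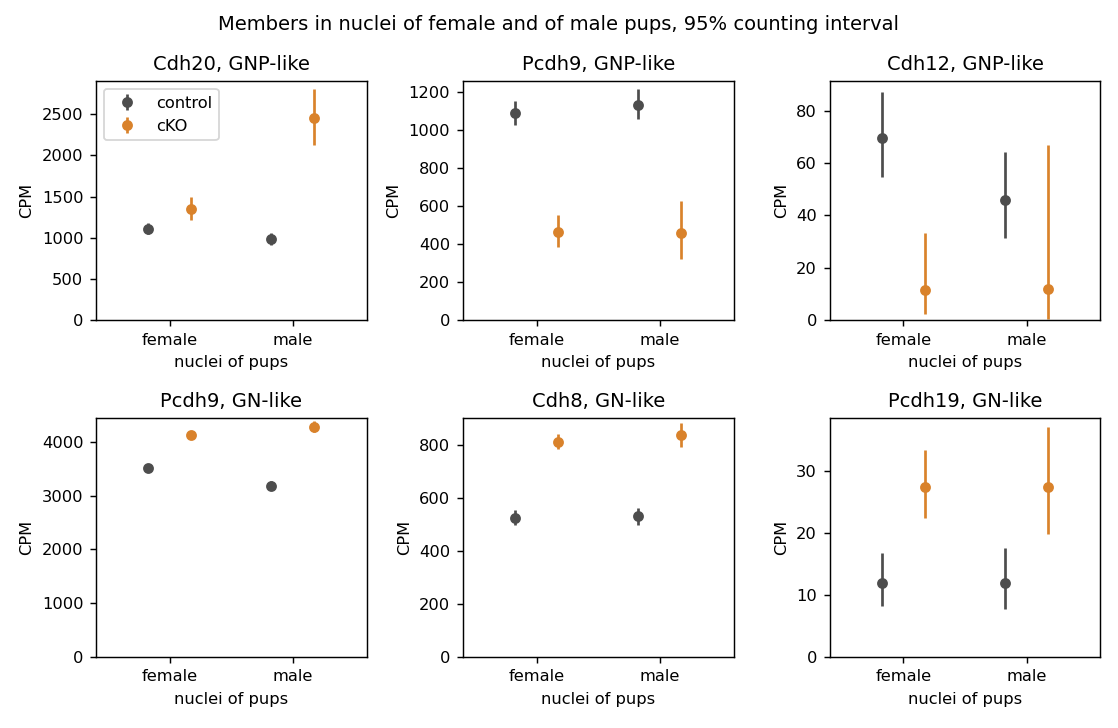
Levels (CPM, from 0) of Cdh20, Pcdh9 and Cdh12 in GNP-like nuclei (top) and of Pcdh9, Cdh8 and Pcdh19 in GN-like nuclei (bottom), in nuclei of female pups (an Xist UMI and no Y-linked UMI) and of male pups (the reverse). Points are control (grey) and cKO (orange) with 95% counting intervals. The direction of each difference is the same in both sexes, and the male cKO intervals for GNP-like nuclei are wide since they rest on 25 nuclei.

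Purkinje cell-like nuclei, the projection neurons of the cerebellar cortex, numbered 300 in control and 716 in cKO, and their 9 markers summed to 15377 and 13886 CPM against 1117 to 1510 CPM in the granule classes. Of 24 members 1 was higher and 3 lower past the fold, against 4.99% and 7.99% of all genes. The 4 past the fold were all low in this class. Cdh20 went from 43.9 to 16.03 CPM, a ratio of 0.37 (95% 0.28 to 0.48), which was 0.86 in female and 0.22 in male pups. Cdh6 had 31 and 26 UMIs, a ratio of 0.43, Cdh22 had 19 and 18 UMIs, a ratio of 0.48, and Pcdh18 had 9 and 27 UMIs, a ratio of 1.53. None of the 4 was past the fold when predicted doublets were kept. Beside them, the 9 GN markers summed to 338 CPM in control Purkinje cell-like nuclei and 190 CPM in cKO. Their part in these ratios was not tested.

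The abundant members of this class stayed within the fold. Cdh18 went from 2264 to 1690 CPM, a ratio of 0.75 (95% 0.72 to 0.77), Pcdh7 from 1416 to 1671 CPM, a ratio of 1.18, and Pcdh9 from 3470 to 4094 CPM, a ratio of 1.18. Cdh18 was lower only in cluster 5, from 2315 to 1301 CPM, a ratio of 0.56 (95% 0.54 to 0.59), whereas in cluster 9 it was at 2194 and 2155 CPM, a ratio of 0.98 (95% 0.94 to 1.03). Pcdh15 was also lower in cluster 5, from 289 to 171 CPM, a ratio of 0.59 (95% 0.52 to 0.67), and had a ratio of 0.76 in cluster 9. Cdh9 was higher in cluster 9, from 1277 to 1816 CPM, a ratio of 1.42 (95% 1.34 to 1.505), and level in cluster 5, at 490 and 497 CPM.

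Purkinje cell-like nuclei formed 2 clusters that carried different sets of members, and the sets were alike in both libraries. Cluster 9 had among its leading genes Ebf2, a transcription factor of a known Purkinje cell subset, at 1620 CPM in control against 165 CPM in cluster 5, and also Cdh9 and its antisense neighbour Gm49127. Of 22 members, 8 were at least 1.5-fold higher in cluster 9 and 6 lower in control, against 10.6% and 12.8% of all genes, and in cKO 9 were higher and 8 lower, against 9.88% and 11.7%. The 8 higher ones were higher in both libraries, 5 were lower in both and none went opposite ways. Both libraries were clustered together and no share of all genes that agree is given, so this is a description only.

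Higher in cluster 9 were Pcdh7, at 2794 CPM against 419 CPM in control, a 6.67-fold difference (95% 6.16 to 7.22), and 4.94-fold in cKO. Cdh9 was 2.61-fold higher there in control and 3.66-fold in cKO, Cdh4 2.41-fold and 2.49-fold, Pcdh19 2.18-fold and 1.66-fold, and Cdh8 2.17-fold and 2.51-fold. Higher in cluster 5 were Pcdh10, at 429 against 53.0 CPM in control and 499 against 90.8 CPM in cKO, and Cdh11, at 901 against 319 CPM in control and 772 against 276 CPM in cKO. Cdh10 was likewise higher in cluster 5, at 386 against 112 CPM in control. Cdh2, Cdh13 and Pcdh9 differed by less than 1.5-fold between the clusters in each library.

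**Figure D5:**
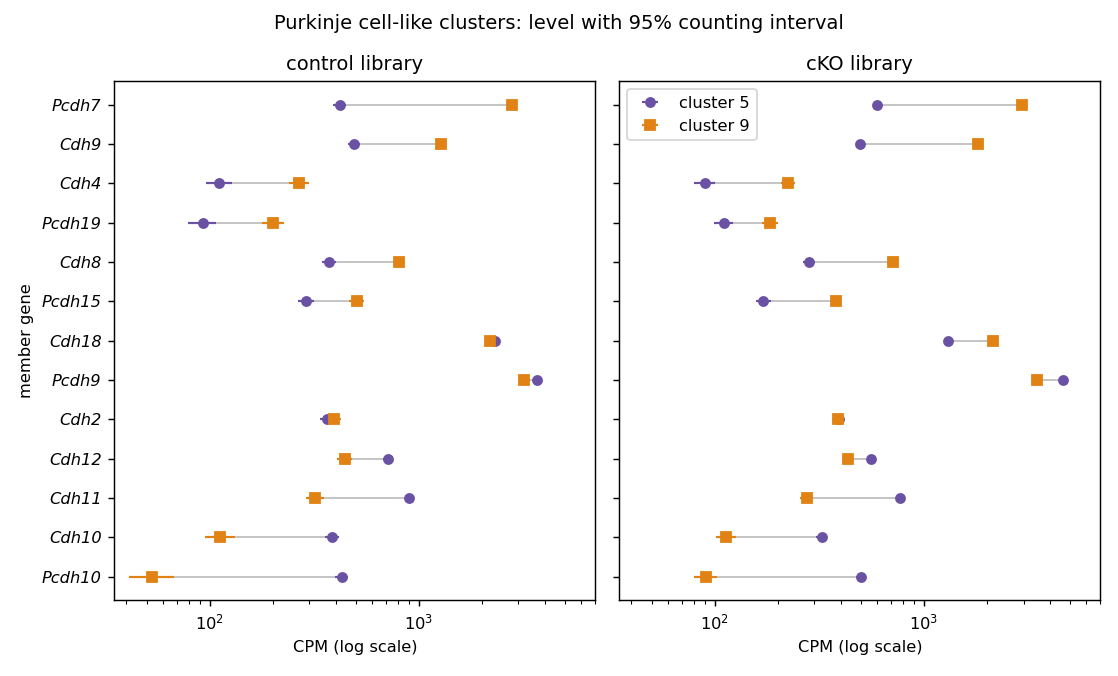
Levels (CPM, log axis) of 13 members in Purkinje cell-like cluster 5 (purple circles) and cluster 9 (orange squares) of the control library (left) and the cKO library (right), with 95% counting intervals, mostly smaller than the points. Pcdh7, Cdh9, Cdh4, Pcdh19 and Cdh8 lie higher in cluster 9 and Cdh11, Cdh10 and Pcdh10 in cluster 5 in both panels, while Cdh18 separates the clusters only in cKO.

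In GABAergic interneuron-like nuclei 1 of 25 members was past the fold in either direction, against 10.4% of all genes. This was Pcdh20, with 6 UMIs in control and 25 in cKO. In cluster 13, with Nxph1 and Grm8 among its leading genes, Pcdh9 reached 12461 CPM in control and 13015 CPM in cKO, and in cluster 6, also Pax2-led, it was at 640 and 694 CPM. Pcdh15 was at 3593 CPM in cluster 13 and 693 CPM in cluster 6 of control, and Cdh20 ran the other way, with 111 and 361 CPM.

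Among Bergmann glia-like nuclei 4 of 23 members were past the fold, against 16.2% of all genes. Cdh4, the most abundant member among those highest in this class in control, went from 1295 to 780 CPM, a ratio of 0.60 (95% 0.56 to 0.65). Cdh8 went from 81.1 to 142 CPM, a ratio of 1.75 (95% 1.38 to 2.25), and Cdh23 and Cdh24, with at most 29 UMIs per library, were lower. Cdh20 stayed within the fold, at 958 and 781 CPM.

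Oligodendrocyte lineage-like nuclei had 3 of 21 members past the fold, against 25.6% of all genes. Cdh8 was at 235 and 155 CPM, a ratio of 0.66 (95% 0.50 to 0.87), Cdh12 had 32 and 58 UMIs, a ratio of 0.64, and Cdh7 had 7 and 31 UMIs, a ratio of 1.56. CN-like nuclei had 2 of 24 past the fold, against 18% of all genes, namely Pcdh1 (14 and 82 UMIs, a ratio of 2.08) and Cdh10 (346 and 228 CPM, a ratio of 0.66). In these 4 classes the members' counts lay close to or below the share of all genes.

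The catenins link classical cadherins to actin, and none of 12 catenins and adaptors was past the fold in the whole library, with ratios from 0.90 for Ctnna1 to 1.13 for Plekha7. In the granule lineage 1 of 12 was lower, against 14.2% of all genes. This was Plekha7, an adaptor at adherens junctions, which went from 28.1 to 15.5 CPM. None of 5 genes that cleave or process cadherins and none of 8 actin regulators bound by delta2 protocadherins was past the fold in the whole library or the lineage. In GNP-like nuclei Wasf3, a subunit of the WAVE actin regulatory complex, went from 93.4 to 248 CPM, a ratio of 2.65 (95% 2.07 to 3.39). Furin, the protease that matures cadherins, had 38 UMIs in control and 3 in cKO there, or 18.6 and 7.14 CPM. Its ratio of 0.38 had an interval, 95% 0.076 to 1.21, that included no difference. Of 15 other members of the cadherin superfamily 1 was higher past the fold in the whole library, against 7.03% of all genes. This was Dsc2, with 42 and 113 UMIs.

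In the granule lineage 3 of 13 of these relatives were higher and 3 lower, against 5.71% and 14.2% of all genes. Celsr1, a planar polarity cadherin, went from 15.7 to 4.17 CPM, Fat3 from 87.3 to 34.8 CPM and Clstn2, a synaptic calsyntenin, from 109 to 62.9 CPM. The higher ones were Pcdh11x (76.4 to 120 CPM), Fat4 (23.9 to 36.5 CPM) and Clstn3 (46.6 to 75.0 CPM). In GNP-like nuclei 4 of 12 were higher and 3 lower, against 11.2% and 21.5% of all genes. In GN-like nuclei 2 of 13 were lower, against 7.06%, and in Purkinje cell-like nuclei 4 of 14 were lower, against 7.99%. Pcdh11x, a delta1 protocadherin outside the naming rule, had 81 and 6 UMIs in GNP-like nuclei, a ratio of 0.36 (95% 0.13 to 0.82).

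Of the remaining members, Cdh16, Cdh17, Cdh26 and Pcdh12 did not reach 20 UMIs over both libraries. Cdh1 (9 and 13 UMIs), Cdh3, Cdh5, Cdh15 and Cdh19 passed the minimum but had fewer than 50 UMIs in all. The genes lie on chromosomes 1, 2, 3, 4, 5, 8, 10, 14, 15, 18 and X, with 8 on chromosome 8 and runs of neighbouring type II cadherins such as Cdh6, Cdh9, Cdh10, Cdh12 and Cdh18 on chromosome 15. Reads could also fall to overlapping genes. Gm15398 lies on the opposite strand of Pcdh15 with 9669 control and 18861 cKO UMIs. Gm15680 overlaps Cdh8 on the same strand with 1543 and 2098 UMIs, and Gm49127 lies opposite Cdh9 with 961 and 2059 UMIs. Likewise 9630013A20Rik lies opposite Pcdh17 with 1398 and 2790 UMIs, and Gm17606 lies opposite Cdh24 with 384 and 524 UMIs. The levels of these and other overlapped members are uncertain to that extent.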

How the data were processed

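Nuclei of postnatal day 1 cerebella were sequenced in 2 libraries, 1 control and 1 cKO. The authors deposited raw UMI counts per gene and barcode, made per the labels with Cell Ranger 7.0.1 on mm10; strand and intron settings are not given in the sources used here. Nuclei with over 25% mitochondrial UMIs and predicted doublets (scanpy 1.11.5; 189 control, 386 cKO) were removed, leaving 20546345 and 30147400 UMIs. Clusters came from Seurat 5.3.0 (R 4.3.3) integration on 2000 features without members, at resolution 0.8, and took an "X-like" name from marker lists by a scoring rule set after the clusters were seen. UMIs were summed per library and class as CPM, and intervals were exact (Python 3.11.15, scipy 1.17.1), tested on simulated data. No p-value was computed. Named were members past the 1.5-fold limit in the whole library, the granule classes or Purkinje cell-like nuclei, and those highest in a class; other members and contrasts were picked after values were seen. The members and lists were chosen with earlier results of these data known. Alternatives were scaling, minimum UMIs, minimum genes, thinning, doublets, pup sex, a marker gate, resolution and members among the features. Results for 1 class of nuclei are not reported here.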

Additional observations from a re-analysis of the deposited data

Results flagged for a closer look

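The ratio of 1 member lay past the fold in opposite directions in 2 classes. Cdh8 had a ratio of 1.75 in Bergmann glia-like nuclei and 0.658 in oligodendrocyte lineage-like nuclei. With 1 library per group this difference was not tested.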

How the results depend on the processing

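With 1 library per group no library could be left out. No paired analysis was possible because each group is 1 library and no test was made. Of the ratios of single genes under the alternatives 264 stayed within their range, 46 moved and 13 turned direction, and the cause was not tested. The number of members past the fold moved in the whole library to 5 with at least 50 UMIs and 3 in male pups, and in the granule lineage to 12 with median-of-ratios scaling and 12 with no minimum. It moved in GNP-like nuclei to 20 with no minimum, 7 after thinning and 8 in male pups, and in GN-like nuclei to 11 with no minimum and 3 in male pups. In Purkinje cell-like nuclei it was 2 with at least 50 UMIs, 12 with no minimum, 0 without doublet removal, 2 after thinning and 2 in female pups. Most of these counts stand without the share of all genes at the same setting. Ratios that turned were those of Cdh5 in the whole library (0.836 thinned, 0.170 in male pups) and of Pcdh18 in Purkinje cell-like nuclei (0.838 thinned, 0.844 in male pups). In GNP-like nuclei male pups gave 1.70 for Pcdh7, 1.24 for Cdh10 and 1.33 for Cdh18, the gate per nucleus gave 1.13 for Cdh7, 1.36 for Pcdh7, 1.69 for Pcdh9, 1.11 for Cdh10 and 1.55 for Cdh18, and resolution 0.4 gave 1.04 for Cdh18. Depth limits the members under 50 UMIs most.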
